A study of Mus musculus with 6 samples.

Results

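Enzymes that add methyl groups to histones (writers) or take them off (erasers), other than LSD1 itself, were followed in cell cultures. The cultures had been given a brown fat induction, with an LSD1 inhibitor or its solvent alone. The set held 36 mouse genes out of 22942 genes in the deposited tables, chosen by name with earlier results of these data known. It was divided into 21 writers and 15 erasers. The cells were C3H-10T1/2, a mouse mesenchymal line able to differentiate into adipocytes. Of the 6 libraries, 3 came from cultures given 4 uM of 611 (Cpd A), an LSD1 inhibitor, and 3 from cultures given DMSO, the solvent control. All 6 were harvested at day 6 and had received the same brown fat induction: 72 h in 10% serum with rosiglitazone and dexamethasone (1 uM each), T3 at 1 nM, insulin at 20 nM, indomethacin at 125 uM and isobutylmethylxanthine at 0.5 mM, then serum with rosiglitazone, T3 and insulin alone. The sources place the first dose of 611 or DMSO either at seeding or 12 h later, with induction 48 h after it. Both groups therefore carry every inducing agent and differ by 611 alone, and the findings are those of a single cell line. Levels are RPKM, reads normalised to transcript length in kilobases and to the size of the library, with the SD over n = 3 libraries of a group.

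Histone methylation marks do not all mean the same thing. On histone H3, methylated lysine 4 and lysine 36 are found at active genes, while methylated lysine 9 and lysine 27 go with repressed chromatin, and lysine 79 and several arginines carry further marks. LSD1 removes mono- and dimethylation by a flavin-dependent reaction, while the erasers described here carry a JmjC domain, need iron and oxoglutarate, and act on lysines 4, 9, 27 and 36. In fat cells the lysine 9 eraser Kdm3a and the lysine 9 writer Ehmt1 are known from mouse work for their part in thermogenic gene expression, and the lysine 27 writer Ezh2 for its part in adipogenesis.

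The labelled cell state was checked first. The 7 general adipocyte markers summed to between 12492 and 13860 RPKM with 611 and between 24180 and 25658 RPKM with DMSO, and all 7 were called lower with 611, the highest being Fabp4, Adipoq and Lpl. Of 5 brown adipocyte markers, Cidea, Cox8b and Elovl3 were measured and lower with 611, Dio2 lay at or below 0.0346 RPKM, and Ucp1, the brown fat uncoupling protein, was listed at 0 in each of the 6 libraries. All 7 markers of proliferating cells were called higher with 611, with a summed level between 203 and 232 RPKM with 611 and between 97.3 and 104 RPKM with DMSO. All 5 mesenchymal progenitor markers were higher too, at a summed 217 to 230 RPKM with 611 and 63.8 to 72.2 RPKM with DMSO. These marker calls are by the limma test described below and were the same after the scaling described there. Over all genes tested, 41.6% were called higher and 17.7% lower, and 28.5% and 28.6% after scaling. Macrophage, endothelial and muscle markers each summed to at most 0.129 RPKM in any library, with Ptprc, Cdh5, Kdr, Myod1, Myog and Ckm at 0. Cd68, also on the macrophage list, was not analysed here and is not in these sums. In such bulk RNA, fewer cells expressing a gene and less RNA of it per cell cannot be told apart. The part of these shifts in cell state in the changes described below was not tested.

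All 36 genes reached 0.1 RPKM in 3 or more libraries and were tested. With 611, 19 of the 36 were called higher and 3 lower (limma, Benjamini-Hochberg adjusted p below 0.05 over all 13829 genes tested). Those are 52.8% and 8.33% of the set, while 41.6% of all genes tested were called higher and 17.7% lower. The median log2 fold change was 0.16 over the 36 genes and 0.10 over all genes tested. More genes were called higher than lower in these values, and median-of-ratios scaling, which brings the libraries' typical gene to a common level, shifted the middle of all genes' log2 fold changes down by 0.11. After scaling, 9 of the 36 were higher and 11 lower, that is 25% and 30.6%, against 28.5% and 28.6% of all genes. The direction of small changes in this set thus turns on the scaling, and each is given below with its scaled value where the call ends. The changes called in the same direction with and without scaling were those of 9 genes that were higher (Ezh2, Setd7, Suv39h1, Setdb1, Smyd3, Prmt1, Ezh1, Kdm4c and Ehmt2) and 3 that were lower (Dot1l, Kdm3a and Suz12). Of all genes, 28.5% and 17.7% were called alike both ways. By size, 5 of the 36 were called higher and at least 1.5-fold by mean RPKM (Smyd3, Ezh2, Setd7, Suv39h1 and Setdb1) and 0 lower, against 18.9% and 4.71% of all genes. In the values as deposited, every 611 library lay above every DMSO library in 20 of the 36, and below in 5, against 45.8% and 20.4% of all genes. With the replicate number as a block in the fit, 21 were higher and 5 lower, against 44.6% and 19.5% of all genes, and with block and scaling 9 were higher and 12 lower, against 31% and 31.2%.

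**Figure D1:**
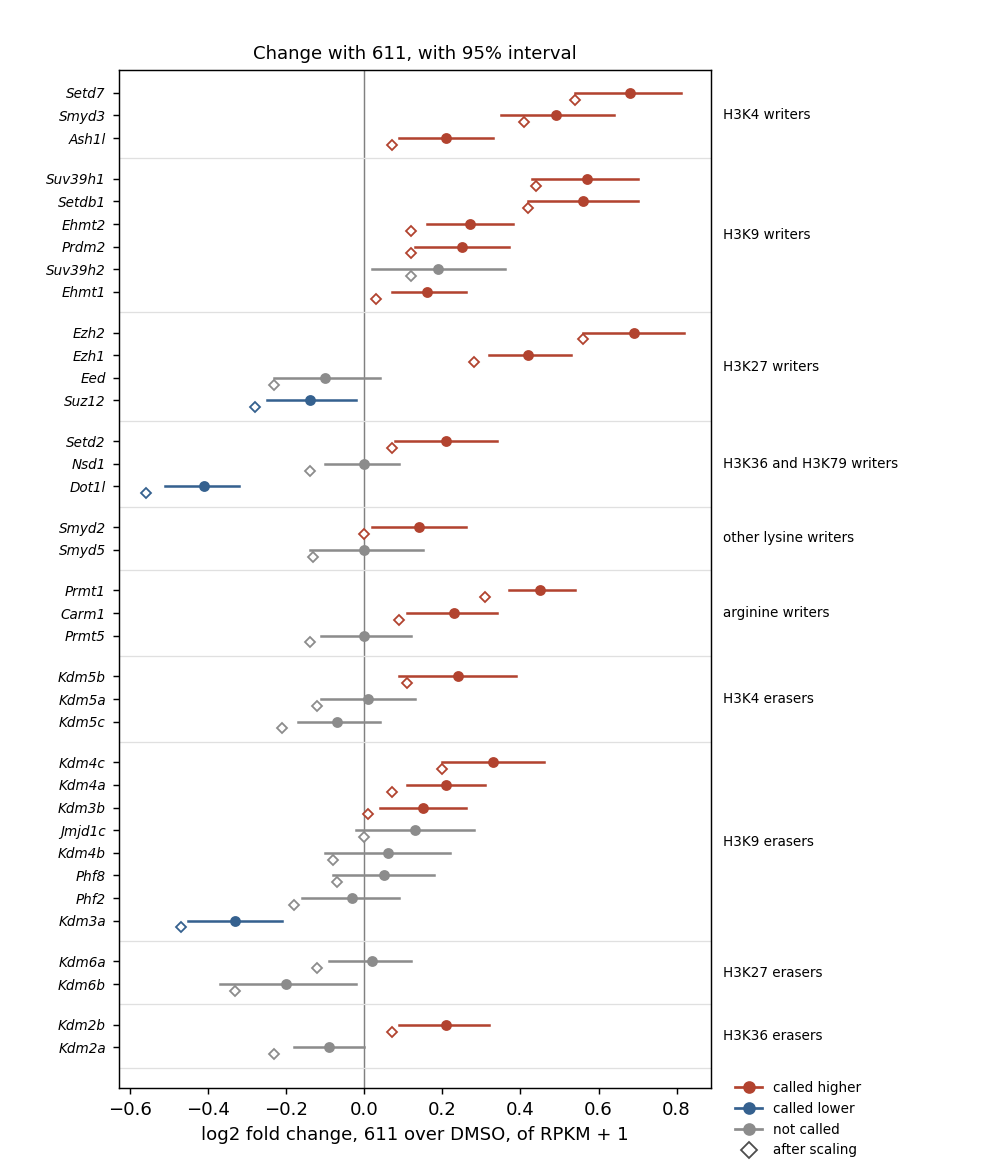
Log2 fold change of RPKM + 1, 611 over DMSO, for the 36 genes in groups by mark and role, on the x axis. Circles are the values as deposited with their 95% interval, coloured by call, and open diamonds, in the same colour, are the values after median-of-ratios scaling. Setd7 and Ezh2 lie farthest to the right and Dot1l farthest to the left, and each diamond lies to the left of its circle.

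Writers and erasers had unlike counts. Of 21 writers, counting the PRC2 subunits Eed and Suz12 among them, 14 were higher and 2 lower (66.7% and 9.52%). Of 15 erasers, 5 were higher and 1 lower (33.3% and 6.67%). Of all genes tested, 41.6% were called higher and 17.7% lower. After scaling the writers stood at 8 higher and 5 lower (38.1% and 23.8%). The erasers then stood at 1 higher and 6 lower (6.67% and 40%), against 28.5% and 28.6% of all genes. The summed level of the writers was 254 to 263 RPKM with 611 and 218 to 224 RPKM with DMSO, so the groups did not overlap. The erasers summed to 169 to 174 RPKM with 611 and 167 to 172 RPKM with DMSO, and there the groups overlapped. Both sums are of the values as deposited. Scaling divides the 611 libraries by 1.04 to 1.06 and the DMSO libraries by 0.939 to 0.96, which lowers the 611 sums and raises the DMSO sums. The gap of the writers and the overlap of the erasers are therefore those of unscaled values only. The difference between the counts was not tested, and the shares of all genes called stand beside them in the plot of shares.

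**Figure D2:**
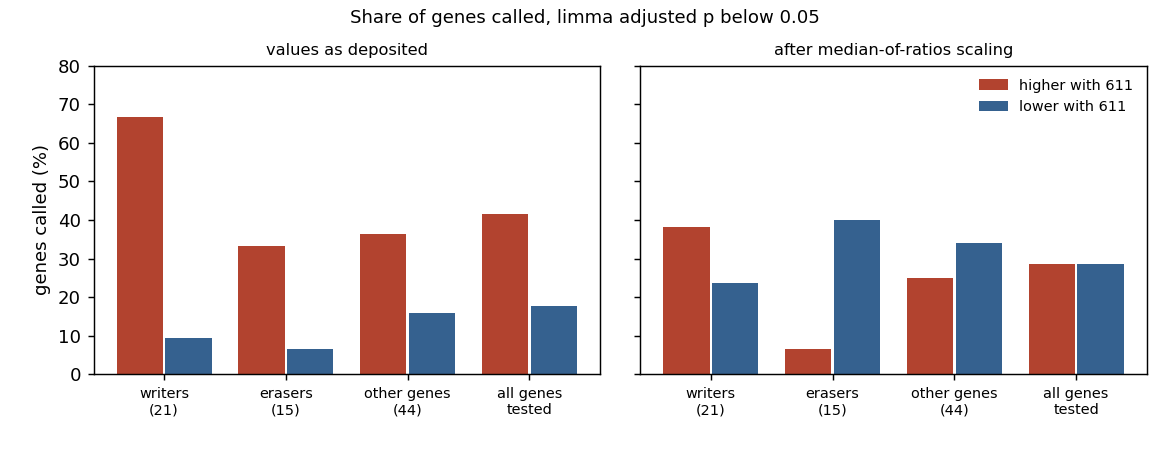
Percent of genes called higher (left bar) or lower (right bar) with 611 on the y axis, for the 21 writers, the 15 erasers, 44 other histone methylation genes and all 13829 genes tested, in the values as deposited and after median-of-ratios scaling. Writers called higher make 66.7% as deposited, against 41.6% of all genes, and 38.1% after scaling, against 28.5%.

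PRC2, the complex that methylates lysine 27 of histone H3, consists of a catalytic subunit, which is either Ezh2 or Ezh1, with the core partners Eed and Suz12. The 4 genes did not move as a block. The promoters of Ezh2 and Suz12, which moved in opposite directions, were the only windows of the set with an E2F-type match, and they are shown with that of Eed for comparison. Each is 250 bases before to 50 bases after the RefSeq start (GRCm38.p6, a later build than the mm9 the submitters used, read from the reference and not from these samples), printed in the direction of the gene. Capitals mark matches on either strand to TTTCCCGC, TTTGGCGC or TTTCGCGC (E2F type), CCAAT (NF-Y) and TTTGAA (the cell cycle homology region). The Ezh2 window is chr6:47594981-47595280 on the minus strand, the Suz12 window chr11:79992856-79993155 on the plus strand and the Eed window chr7:89980927-89981226 on the minus strand.
Ezh2: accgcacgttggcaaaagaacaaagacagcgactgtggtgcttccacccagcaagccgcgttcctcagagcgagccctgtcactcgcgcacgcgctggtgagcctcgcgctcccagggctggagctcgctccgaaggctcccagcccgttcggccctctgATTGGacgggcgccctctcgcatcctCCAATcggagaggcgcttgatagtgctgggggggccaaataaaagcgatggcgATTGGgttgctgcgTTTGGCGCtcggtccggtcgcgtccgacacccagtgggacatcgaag
Suz12: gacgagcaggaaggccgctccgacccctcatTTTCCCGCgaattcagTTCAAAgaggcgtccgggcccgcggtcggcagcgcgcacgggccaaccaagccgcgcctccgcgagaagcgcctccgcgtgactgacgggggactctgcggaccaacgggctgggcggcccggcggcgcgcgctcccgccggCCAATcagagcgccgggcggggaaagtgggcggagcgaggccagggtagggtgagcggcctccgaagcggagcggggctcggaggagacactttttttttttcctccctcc
Eed: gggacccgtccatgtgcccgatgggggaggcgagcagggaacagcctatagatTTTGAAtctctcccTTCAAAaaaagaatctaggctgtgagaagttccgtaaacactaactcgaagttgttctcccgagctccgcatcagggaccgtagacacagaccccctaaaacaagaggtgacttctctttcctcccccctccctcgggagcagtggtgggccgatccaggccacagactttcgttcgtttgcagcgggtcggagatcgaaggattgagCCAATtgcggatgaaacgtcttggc

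Windows were held for 26 of the 36 genes, 35 windows in all with alternative starts. An E2F-type match stood in 2 of the 35 (5.71%), against 1.84% of all 32851 mouse windows and 3.36% of the 13322 windows of genes tested here. In Ezh2 the match was TTTGGCGC, 3 bases after the annotated start, and in Suz12 TTTCCCGC, 219 bases before it. CCAAT stood in 14 of the 35 windows (40%), against 37.4% of all windows and 38.3% of those of tested genes, with 3 matches in the Ezh2 window and 1 each in those of Suz12 and Eed. TTTGAA stood in 4 windows (11.4%), against 17.9% of all and 12.2% of those of tested genes, in Eed, Suz12, Suv39h2 and Jmjd1c, and GCGCATGCG, the NRF1 motif, in 0, against 1.75% and 3.45%. None of the printed matches overlap each other. The windows were rich in CpG, with a median of 26 CpG per window, against 20 over the genes tested and 7 over all windows. Such matches describe the letters of the window, and binding was not measured.

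Ezh2 measured 6.84, 6.98 and 7.51 RPKM in the 611 libraries, against 3.99, 3.84 and 4.25 RPKM in the DMSO libraries. The groups lay well apart, and the 1.76-fold higher mean passed the test (log2 fold change 0.69 ± 0.059 SE, limma Benjamini-Hochberg adjusted p = 1.6e-05, and 0.56 after scaling). Ezh1, the form of the catalytic subunit known from cells that no longer divide, measured 20.7, 21.6 and 22.5 RPKM with 611, against 15.3, 16.1 and 16.2 RPKM with DMSO, and rose 1.36-fold (log2 fold change 0.42 ± 0.046 SE, adjusted p = 6.5e-05 by limma). Ezh1 thus remained the more abundant transcript per length in every library.
Eed, which binds methylated lysine 27 and activates the enzyme, measured 8.91, 7.78 and 8.90 RPKM with 611 and 9.07, 8.96 and 9.49 RPKM with DMSO. Its 611 libraries were all below its DMSO libraries, yet the difference did not pass the test (95% interval of the log2 fold change -0.23 to 0.04, limma adjusted p = 0.200), and after scaling it was called lower at -0.23. Suz12, the scaffold subunit, measured 16.1, 15.2 and 16.6 RPKM with 611, against 17.3, 17.2 and 18.7 RPKM with DMSO, and was called 1.11-fold lower (limma adjusted p = 0.0429). That call was lost without 611 replicate 1 or 2 or DMSO replicate 1 or 3 (limma adjusted p from 0.0593 to 0.145), and it was stronger after scaling, at -0.28.

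Because both values of a ratio come from the same library, a ratio of 2 genes does not move with the scaling. The ratio of Ezh2 to Ezh1 was 0.330, 0.323 and 0.333 with 611, against 0.261, 0.239 and 0.261 with DMSO. The log2 ratio differed by 0.37 between the groups, and no library of a group overlapped the other group, which gave an exact two-sided permutation p = 0.1, the smallest that 3 against 3 allows. The ratio of Ezh2 to Suz12, taken up after its values were seen and given as a description, was 0.423, 0.458 and 0.451 with 611 and 0.231, 0.224 and 0.227 with DMSO. Ezh2 therefore stood higher relative to both its alternative and its scaffold partner.

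**Figure D3:**
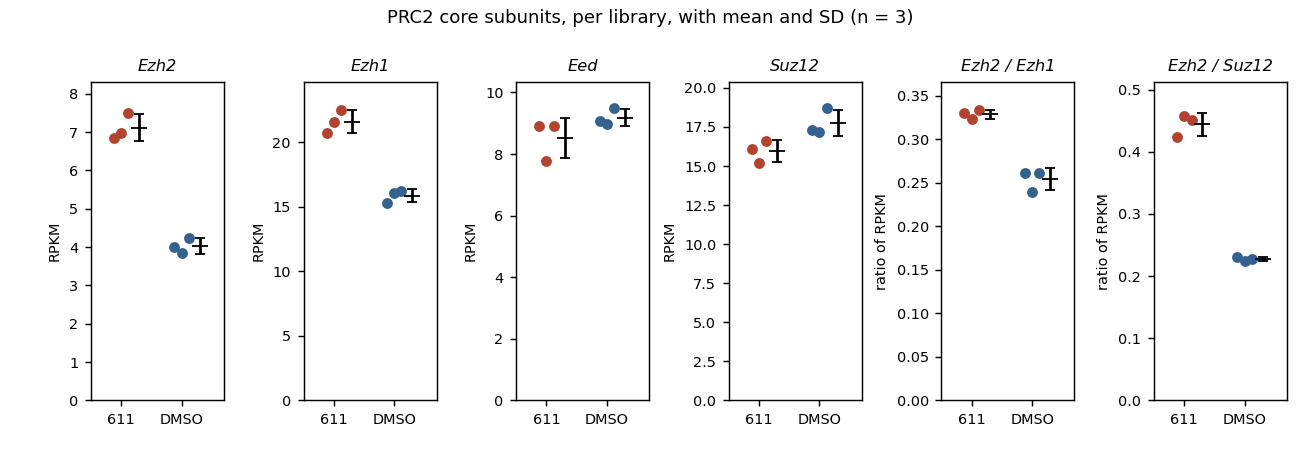
RPKM of the 4 PRC2 core genes, and the ratios of Ezh2 to Ezh1 and to Suz12, on the y axes, which start at 0; points are the 3 libraries of 611 (left) and of DMSO (right), and black bars the mean with its SD. Ezh2 and Ezh1 are higher in every 611 library, Suz12 is lower in every 611 library, and the Ezh2 to Suz12 ratio averages 0.444 with 611 and 0.227 with DMSO.

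The erasers of lysine 27, Kdm6a (UTX) and Kdm6b (JMJD3), did not pass the test. Kdm6a measured 9.59, 9.35 and 9.99 RPKM with 611 and 9.21, 9.69 and 9.67 RPKM with DMSO, which overlap. Kdm6b measured 10.3, 11.9 and 10.0 RPKM with 611 and 12.6, 13.3 and 11.4 RPKM with DMSO, also with overlap (log2 fold change -0.20, limma adjusted p = 0.0523). Kdm6b was called lower when the replicate number, taken here to pair the libraries, entered the fit as a block (limma adjusted p = 0.00496). It was also called lower after scaling (-0.33, limma adjusted p = 0.00438) and without 611 replicate 2 or DMSO replicate 3 (limma adjusted p = 0.0120 and 0.0259). Kdm6a was called lower after scaling (-0.12, limma adjusted p = 0.0481, and 0.0353 with the block as well) and with trends of length, GC content and level removed (-0.16, limma adjusted p = 0.0179).

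Among the writers of lysine 9, 5 of 6 were higher with 611 and none lower. In the values as deposited, the 611 libraries of all 6 lay above their DMSO libraries. Of all genes tested, 41.6% were called higher and 45.8% had every 611 library above the DMSO libraries. After scaling 3 of the 6 were higher, against 28.5% of all genes. Suv39h1, which lays down trimethylation in constitutive heterochromatin, measured 5.54, 5.12 and 5.33 RPKM with 611, against 3.40, 3.39 and 3.04 RPKM with DMSO, a 1.63-fold rise (log2 fold change 0.57 ± 0.061 SE, limma adjusted p = 6.2e-05). Its paralog Suv39h2 measured 0.977, 0.834 and 1.17 RPKM with 611 and 0.672, 0.755 and 0.813 RPKM with DMSO. At this low level the groups only just separated and the difference missed the threshold (limma adjusted p = 0.0572, 0.0399 with the replicate block and 0.0252 without 611 replicate 2). The Suv39h2 transcript used is recorded as non-coding. The coding transcript, at 98.6% of its mean level, was called higher in the fit on second transcripts (limma adjusted p = 0.0491). Setdb1, the writer that KRAB zinc finger proteins bring to retroelements, measured 11.5, 11.3 and 13.1 RPKM with 611, against 7.45, 8.13 and 7.74 RPKM with DMSO, 1.54-fold higher (log2 fold change 0.56 ± 0.062 SE, limma adjusted p = 7.5e-05).
Ehmt2 (G9a) and Ehmt1 (GLP), which work as a pair in dimethylation, changed less. Ehmt2, one of the highest values of the set, measured 31.4, 33.2 and 31.1 RPKM with 611, against 26.1, 27.8 and 25.1 RPKM with DMSO, 1.21-fold higher (log2 fold change 0.27, limma adjusted p = 0.0012, and 0.12 with adjusted p = 0.0461 after scaling). Ehmt1 measured 10.6, 11.0 and 11.0 RPKM with 611, against 9.57, 9.56 and 9.64 RPKM with DMSO, 1.13-fold higher (limma adjusted p = 0.00892). Its scaled change of 0.03 was no longer called (limma adjusted p = 0.626). Prdm2 (RIZ), another writer of lysine 9, measured 7.42, 7.82 and 8.08 RPKM with 611, against 6.45, 6.08 and 6.60 RPKM with DMSO. It rose 1.22-fold, and its scaled change of 0.12 was not called (limma adjusted p = 0.0921).

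The erasers of lysine 9 split. Kdm3a, which removes mono- and dimethylation and is induced by adrenergic signals and hypoxia, measured 8.71, 9.27 and 9.43 RPKM with 611, against 11.4, 11.4 and 12.4 RPKM with DMSO. It fell 1.29-fold (log2 fold change -0.33 ± 0.053 SE, limma adjusted p = 6.6e-04) and was the only eraser called lower in the fit without scaling or block. Its paralog Kdm3b measured 10.8, 10.6 and 10.9 RPKM with 611 and 10.1, 9.52 and 9.17 RPKM with DMSO, 1.12-fold higher (limma adjusted p = 0.0227). The Kdm3b call was lost after scaling (0.01, limma adjusted p = 0.822), and without 611 replicate 1 or 3 or DMSO replicate 2 or 3 (limma adjusted p from 0.0527 to 0.0809). The ratio of Kdm3a to Kdm3b, described after its values were seen, was 0.808, 0.875 and 0.866 with 611 and 1.14, 1.20 and 1.35 with DMSO, so the order of the paralogs turned round. Jmjd1c, the third of the family, measured 9.03, 10.1 and 10.6 RPKM with 611 and 8.41, 9.16 and 9.26 RPKM with DMSO, with overlap (limma adjusted p = 0.110, 0.0230 with the replicate block and 0.0263 without 611 replicate 1).
Kdm4c, which acts on trimethylated lysines 9 and 36, measured 6.46, 6.64 and 7.19 RPKM with 611, against 5.0, 5.30 and 5.23 RPKM with DMSO. It rose 1.31-fold (log2 fold change 0.33 ± 0.056 SE, limma adjusted p = 9.9e-04) and was the only eraser still called higher after scaling (0.20, limma adjusted p = 0.0109). Its relative Kdm4a measured 18.7, 19.4 and 19.1 RPKM with 611, against 15.7, 17.1 and 16.3 RPKM with DMSO. It rose 1.16-fold, a call that ended on scaling (0.07, limma adjusted p = 0.198). Kdm4b, at 9.13 ± 0.851 RPKM with 611 and 8.71 ± 0.443 RPKM with DMSO, did not pass the test. The PHD finger proteins Phf2 and Phf8 did not pass it either, at 14.2 ± 0.8 and 4.12 ± 0.220 RPKM with 611 and 14.5 ± 0.699 and 3.95 ± 0.0891 RPKM with DMSO. Phf2 was called lower after scaling (-0.18, limma adjusted p = 0.024), and Phf8 with trends of length, GC content and level removed (-0.25, limma adjusted p = 0.00434).

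The 3 genes listed as lysine 4 writers were all called higher, as were 41.6% of all genes, and after scaling 2 of the 3 were, against 28.5% of all genes. Setd7, which monomethylates lysine 4 and also several proteins other than histones, measured 8.68, 9.85 and 9.83 RPKM with 611, against 5.40, 5.74 and 5.48 RPKM with DMSO. Its 1.71-fold rise was clear of the spread between libraries (log2 fold change 0.68 ± 0.060 SE, limma adjusted p = 2.1e-05, and 0.54 after scaling). Smyd3, known to act on lysine 4 and on a cytoplasmic kinase, measured 1.45, 1.48 and 1.48 RPKM with 611, against 0.876, 0.729 and 0.667 RPKM with DMSO. This was the largest fold of the set by mean RPKM, 1.94-fold, from the fewest reads of those with a known transcript length, about 183 in the lowest library (log2 fold change 0.49 ± 0.064 SE, limma adjusted p = 1.9e-04). At this level the log2 value depends on the pseudocount of 1, and was 0.88 with a pseudocount of 0.1 and 0.96 with 0.01. Ash1l, now known mainly for dimethylation of lysine 36, measured 8.91, 9.32 and 9.88 RPKM with 611 and 7.93, 7.74 and 8.28 RPKM with DMSO, 1.17-fold higher. Its call ended on scaling (0.07, limma adjusted p = 0.276).
Of the Kdm5 family, which removes lysine 4 methylation up to the trimethylated form that LSD1 cannot attack, Kdm5b was called before scaling and Kdm5c after it. Kdm5b measured 7.33, 8.67 and 8.43 RPKM with 611, against 6.59, 6.62 and 6.98 RPKM with DMSO, 1.21-fold higher (limma adjusted p = 0.0119), and its scaled change of 0.11 was not called (limma adjusted p = 0.173). Kdm5c, the most abundant of the family, averaged 26.1 ± 1.25 RPKM with 611 and 27.4 ± 0.674 RPKM with DMSO. It did not pass the test as deposited (limma adjusted p = 0.228) and was called lower after scaling (-0.21, limma adjusted p = 0.00476). Kdm5a averaged 6.48 ± 0.171 RPKM with 611 and 6.43 ± 0.249 RPKM with DMSO, and the 95% interval of its log2 fold change was -0.11 to 0.13. It was called lower with scaling and block together (-0.12, limma adjusted p = 0.044) and with trends removed (-0.21, limma adjusted p = 0.00657).

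Dot1l, the writer of lysine 79, showed the largest fall. It measured 13.7, 13.2 and 13.4 RPKM with 611, against 18.2, 19.0 and 17.6 RPKM with DMSO, 1.36-fold lower (log2 fold change -0.41 ± 0.043 SE, limma adjusted p = 5.2e-05, and -0.56 after scaling). Setd2, the trimethylase of lysine 36 that travels with elongating polymerase, measured 10.5, 10.7 and 11.3 RPKM with 611, against 8.85, 9.02 and 10.0 RPKM with DMSO. It was 1.17-fold higher (limma adjusted p = 0.0124), and its scaled change of 0.07 was not called (limma adjusted p = 0.323). Nsd1, a dimethylase of lysine 36, averaged 11.1 ± 0.107 RPKM with 611 and 11.1 ± 0.291 RPKM with DMSO, with an interval of -0.10 to 0.09 on the log2 scale. It was called lower after scaling (-0.14, limma adjusted p = 0.018).
Of the lysine 36 erasers, Kdm2b passed the test and Kdm2a did not. Kdm2b, which also brings a Polycomb complex to CpG islands, measured 7.69, 7.99 and 7.58 RPKM with 611, against 6.61, 6.82 and 6.35 RPKM with DMSO, 1.18-fold higher (limma adjusted p = 0.00683). That call ended on scaling, at 0.07 (limma adjusted p = 0.237). Kdm2a averaged 20.1 ± 0.598 RPKM with 611 and 21.5 ± 0.337 RPKM with DMSO. It missed the threshold at limma adjusted p = 0.0808, was called lower with the replicate block (limma adjusted p = 0.0418) and was called lower after scaling (-0.23).

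Of the arginine writers, Prmt1, which makes most asymmetric dimethylarginine in mammalian cells, gave the smallest adjusted p of the set. It measured 31.3, 31.1 and 32.6 RPKM with 611, against 22.6, 23.2 and 22.8 RPKM with DMSO, 1.39-fold higher (log2 fold change 0.45 ± 0.037 SE, limma adjusted p = 1.2e-05, and 0.31 after scaling). Carm1, which methylates arginines of histone H3 as a coactivator, measured 14.4, 14.1 and 14.2 RPKM with 611, against 12.0, 12.8 and 11.3 RPKM with DMSO. It was 1.18-fold higher (limma adjusted p = 0.00423), and its scaled change of 0.09 was not called (limma adjusted p = 0.163).
Prmt5, the main writer of symmetric dimethylarginine, measured 12.0, 12.1 and 12.7 RPKM with 611 and 11.7, 12.9 and 12.2 RPKM with DMSO, with overlap and an interval of -0.11 to 0.12 on the log2 scale. It was called lower after scaling (-0.14, limma adjusted p = 0.0305). The ratio of Prmt1 to Prmt5, described after its values were seen, was 2.60, 2.57 and 2.56 with 611 and 1.93, 1.79 and 1.87 with DMSO. Smyd2, which methylates p53 among other proteins, measured 15.1, 17.2 and 15.2 RPKM with 611 and 14.2, 14.1 and 14.4 RPKM with DMSO. Its call (limma adjusted p = 0.0452) was lost without 611 replicate 2 or any of the DMSO libraries (0.0762 to 0.146) and after scaling (0.991). Smyd5 averaged 6.27 ± 0.533 RPKM with 611 and 6.26 ± 0.188 RPKM with DMSO, with an interval of -0.14 to 0.15. It was called lower with trends of length, GC content and level removed (-0.20, limma adjusted p = 0.0191).

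**Figure D4:**
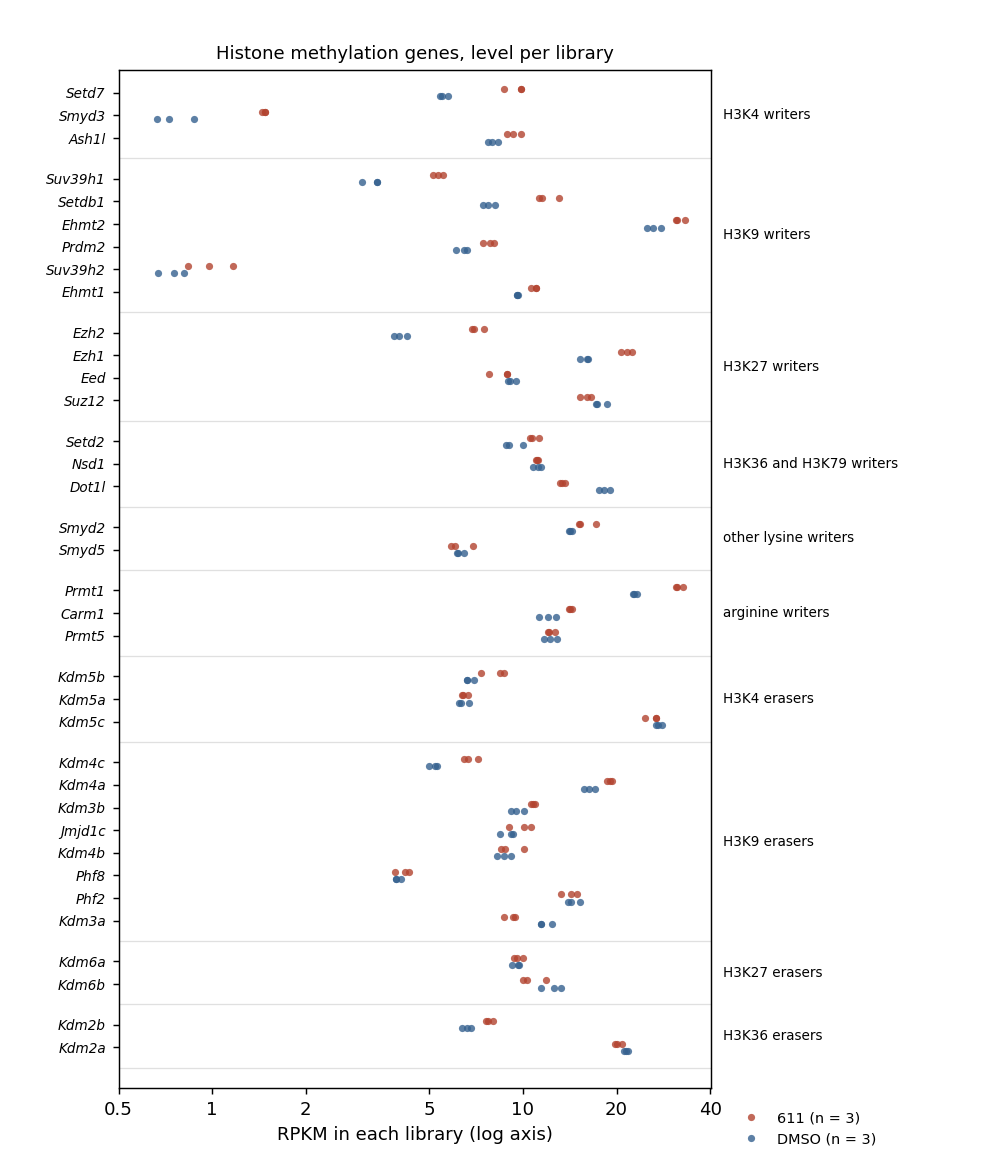
RPKM of the 36 genes in each library on a log axis, in groups by mark and role; for each gene the upper row of points is the 3 libraries of 611 and the lower row the 3 of DMSO. Smyd3 and Suv39h2 lie lowest, at 0.994 to 1.47 RPKM on average with 611, and Ehmt2 and Prmt1 highest, at 31.9 and 31.7 RPKM with 611.

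Levels spanned a wide range. By mean RPKM the set ran from 0.994 (Suv39h2) to 31.9 (Ehmt2) with 611 and from 0.747 (Suv39h2) to 27.4 (Kdm5c) with DMSO. Ehmt2 and Prmt1 with 611, at 31.9 ± 1.14 and 31.7 ± 0.797 RPKM, do not differ beyond their spread, and with DMSO Kdm5c and Ehmt2, at 27.4 ± 0.674 and 26.3 ± 1.36 RPKM, do not either. The SD between the libraries of a group had a median of 4.26% of the mean with 611 and 4.01% with DMSO. Counting error, from the reads that the library total and transcript length give, was between 1.24% and 7.39% in the lowest library of each gene with a known length. That covers 35 of the 36 genes and leaves out Suv39h2, the lowest of the set. The 13 genes with several transcripts in the tables gave nearly the same fold from their other transcripts. These stood at 70.4% to 99.9% of the mean level of the transcript used. Reads of shared exons may be counted for each transcript, so the likeness is not an independent check of the folds. The farthest apart were Kdm2b, 1.21-fold from the other transcript and 1.18-fold from that used, and Phf8, 1.01-fold and 1.04-fold.
The transcripts of the set were long, with a median of 4816 bases, against 2845 bases over the genes tested. Removing the trend of the log2 fold change on length, GC content and level over all genes left 8 of 35 genes higher and 13 lower, against 27.4% and 33% of all genes. The genes called alike with and without scaling kept their call there, except Kdm4c (0.11, limma adjusted p = 0.111). The log2 fold change was then 0.24 for Smyd3, 0.31 for Suv39h1 and -0.25 for Suz12, over 1.5 times from the values as deposited.

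Other genes of histone methylation gave a background for the set. Of a list of 48 writers, erasers and complex subunits, 44 could be tested, and 16 were called higher and 7 lower (36.4% and 15.9%, against 41.6% and 17.7% of all genes), with a median log2 fold change of 0.09. After scaling the balance turned, with 11 higher and 15 lower (25% and 34.1%, against 28.5% and 28.6%), and without DMSO replicate 2 the 7 called lower became 4. Kmt2a, Setd1b and Setdb2 were not analysed here, and Prmt8 was listed at 0. Among those with at least 1 RPKM, ranked by the log2 fold change of RPKM + 1, the largest rises were those of Hr, 5.74 ± 0.478 RPKM with 611 and 2.33 ± 0.0800 RPKM with DMSO, an eraser of lysine 9 known from skin and hair, and of the arginine methyltransferase Prmt2, 9.55 ± 0.123 RPKM with 611 and 5.08 ± 0.391 RPKM with DMSO. Psip1, a reader of lysine 36 methylation, and Nsd2, a dimethylase of that lysine, rose 1.67-fold and 1.48-fold. The largest falls by the same ranking were those of Kdm7a, an eraser of lysines 9 and 27, 5.44 ± 0.424 RPKM with 611 and 7.54 ± 0.508 RPKM with DMSO, and Jmjd6, 17.2 ± 1.01 RPKM with 611 and 21.2 ± 1.11 RPKM with DMSO. Setd1a, a writer of lysine 4, and Kmt5c, a writer on histone H4, fell 1.20-fold and 1.18-fold. All 8 were called in the same direction after scaling. Below 1 RPKM, and named after their values were seen, Phf19, a PRC2 accessory subunit, averaged 0.774 ± 0.0781 RPKM with 611 and 0.282 ± 0.0473 RPKM with DMSO, a larger ratio of means (2.75) than that of Hr (2.46). Smyd1 averaged 0.0221 ± 0.0321 RPKM with 611 and 0.137 ± 0.0397 RPKM with DMSO, from at most 24 reads in a library. Its call (limma adjusted p = 0.0414) was lost with the replicate block (0.0609).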

How the data were processed

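RNA was sequenced as 6 libraries and deposited as RPKM per RefSeq transcript, 28430 transcripts per library. Per the submitters' processing notes, TopHat2 2.0.12, TopHat and SAMtools were used with mm9. The program that made the deposited RPKM values, the annotation release and whether strand was used could not be learned from the labels or headers. Reads of overlapping or near-identical genes, or of transcripts of the same gene, may therefore be shared. Symbols were matched by RefSeq accession for 27785 transcripts, and each of 22942 genes was represented by its transcript with the highest mean. Library totals were estimated as 3.89e+07 to 4.12e+07 reads, from the value of 1 read in low transcripts with GENCODE M21 lengths and a search between 3e+07 and 5e+07, and counting errors derived from them cover counting only.

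The values were taken as log2(RPKM + 1), which understates changes of low genes, for genes with at least 0.1 RPKM in at least 3 libraries. The groups were compared with limma 3.58.1 in R 4.3.3, with a mean-variance trend and Benjamini-Hochberg adjustment over all 13829 genes, at a threshold of 0.05. Fold changes quoted without log2 are ratios of mean RPKM, and intervals are at 95%. The p-values measure the spread between the 3 libraries of a group. The sample titles number these as replicates and do not say whether they were separate cultures. The code was tested on simulated data.

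Same-numbered libraries deviated together weakly from their group means (r = 0.3, 0.3 and 0.18 for the 3 numbers), against -0.23 to -0.07 for unlike numbers. Because the deviations within a group sum to 0, these values are not independent. The replicate numbers were taken to pair the libraries. That pairing comes from the data and shared numbers, and the labels do not state it. The blocked value is given where it changes a call.

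The 36 genes and the lists were chosen with earlier results of these data known. All 36 are named. Values per library were given for called genes without overlap between the groups and for 12 genes chosen by name, and Eed and Jmjd1c were added after their values were seen. Of the other methylation genes, up to 4 in each direction with at least 1 RPKM were named, by log2 fold change. Promoters came from RefSeq (GRCm38.p6), and 26 genes matched.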

Additional observations from a re-analysis of the deposited data

How the results depend on the processing

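Pseudocounts of 0.1 and 0.01 changed no call of the 36 genes. Scaling left 9 of them higher and 11 lower, against 3948 higher and 3959 lower over all genes tested. With length, GC content and level trends removed, 8 were higher and 13 lower, against 3452 higher and 4148 lower over all genes. The replicate block gave 21 higher and 5 lower (44.6% and 19.5% of all genes), adding Kdm2a, Jmjd1c, Kdm6b and Suv39h2 and losing none. With block and scaling 9 were higher and 12 lower, against 4293 higher and 4319 lower over all genes. The log2 ratio of Ezh2 to Ezh1 differed by 0.37 within pairs too (exact sign-flip permutation p = 0.25, the smallest that 3 pairs allow). Other methylation genes called lower were 15 after scaling, 15 with scaling and block and 16 with trends removed (34.1%, 34.1% and 36.4%). Of all genes, 28.6%, 31.2% and 33% were called lower in those fits. When a replicate was left out, the other methylation genes called lower were 4 to 6, with 4 without DMSO replicate 2. Leaving out a replicate gave 17 to 19 of the 36 genes higher and 2 to 3 lower, and an Ezh2 to Ezh1 difference of 0.33 to 0.40. Over all genes, 5127 to 5532 were then called higher and 2167 to 2329 lower. Genes with small changes turned sign. With scaling, alone or with the replicate block, the log2 fold change was -0.004 for Jmjd1c, -0.08 for Kdm4b, -0.12 for Kdm5a and Kdm6a, -0.07 for Phf8, -0.13 for Smyd5 and -0.14 for Prmt5. With trends removed it was -0.05 for Jmjd1c, -0.14 for Kdm4b, -0.21 for Kdm5a, -0.16 for Kdm6a, -0.25 for Phf8, -0.20 for Smyd5 and -0.13 for Prmt5, and the called genes Kdm3b and Ehmt1 turned to -0.04 and -0.01. Leaving out a replicate gave -0.01 to 0.10 for Kdm4b, -0.01 to 0.04 for Kdm5a and for Kdm6a, -0.07 to 0.01 for Phf2, -0.02 to 0.01 for Nsd1, -0.06 to 0.04 for Smyd5 and -0.03 to 0.04 for Prmt5. Testing every gene without the filter, or without the mean-variance trend, ended the calls of Suz12 (adjusted p = 0.0572 and 0.0611) and Smyd2 (0.063 and 0.061) by limma. Suv39h2 was called higher without the mean-variance trend (limma adjusted p = 0.0456) and from its second transcript (0.0491), and Kdm6b lower with a filter at 1 RPKM (0.0424), which ended no call among the genes of the set that passed it. The causes of these changes were not tested. With 3 libraries a group, no exact test of a single value can fall below p = 0.1.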
